A study of Mus musculus with 9 samples.

Results

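The chemokines and their receptors were followed gene by gene in tibia RNA of NGT, T1D and Lira mice. Members were all rows of the expression table whose mouse gene symbol begins with Ccl, Cxcl, Cx3cl or Xcl and a number, or with Ccr, Cxcr, Cx3cr, Xcr or Ackr and a number. This gave 59 of 18272 genes, of which 36 were ligands and 23 were receptors. All mice were female C57BL/6J animals, bought at an age of 10 to 11 weeks, and 1 tibia per mouse gave 1 library. NGT mice (n = 3) had been injected with vehicle and had normal glucose tolerance, and the study's methods name no saline treatment for them. T1D mice (n = 3) had been made diabetic with a single injection of streptozotocin (STZ), a toxin of pancreatic beta cells, and received saline. Lira mice (n = 3) had been made diabetic in the same way and received liraglutide, which activates the receptor of the gut hormone GLP-1, for 8 weeks in mice 1 and 2 and for 9 weeks in mouse 3 per the labels. The study's methods state 8 weeks of treatment and do not mention 9 weeks. STZ acts by chemical damage to the beta cells and not by autoimmunity, which limits these mice as a model of type 1 diabetes.

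Chemokines are small secreted proteins that guide cells along a gradient, and they act through receptors that couple to inhibitory G proteins. Some are made all the time and hold cells in place, such as Cxcl12, which keeps blood stem and progenitor cells in the bone marrow. Others are made during inflammation, under the control of NF-κB or of interferons, and draw monocytes, neutrophils or T cells out of the blood. Atypical receptors (the Ackr genes) bind chemokines without G protein signaling and clear or store them.

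Library totals ranged from 13086373 to 16528394 counts, and levels are given as CPM, which are counts divided by library depth after scaling with edgeR's TMM factors. A count of 0 allowed a level of up to 0.163 to 0.237 CPM, counting 3 reads as the limit, and this covers counting error only. Muscle genes (Acta1, Ckm and 5 others, summed) stood at 74100 to 198000 CPM in every library although the bones had been cleaned of muscle. Their sums were lowest in T1D mouse 1 (74100 CPM), NGT mouse 1 (97100 CPM) and Lira mouse 3 (103000 CPM), which were also the libraries in which most members were highest. Summed markers of marrow stroma and osteoblasts, which a tibia should hold, were 3630 CPM in T1D mouse 1 and 206 to 1010 CPM in the others. Col1a1 alone made up 3210 CPM of the sum in T1D mouse 1. Sp7, Alpl, Bglap, Runx2 and Adipoq of this list were highest there as well, but Kitl, Lepr, Ebf3, Foxc1 and Vcam1 were not. The part of these tissues in the results was not tested. T1D mouse 1 stood apart from the other libraries in many genes. Its level was over 3 times that of every other library for 7 of the 31 members tested and for 187 of the 13960 genes tested (1.34%). Estimates of members that changed sign or moved by over 1.5 times without this mouse are therefore given both ways. Less RNA per cell and fewer cells of a type cannot be told apart in RNA of a whole bone.

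Of the 59 members, 31 reached 10 counts in 3 or more of the 9 libraries and were tested, 17 ligands and 14 receptors. A member could reach this minimum through 1 group alone, so the counts over tested members are descriptions. A member was called when its adjusted p-value was under 0.05 in edgeR's quasi-likelihood test across all tested genes and its fold change was over 2. By this rule 0 of 31 members were called between T1D and NGT mice and 0 of 31 between Lira and T1D mice, against 0.0% of all genes in both comparisons. DESeq2 and limma also called 0 members in both comparisons. The lowest adjusted p-value of a member was 0.977 for T1D against NGT and 0.978 for Lira against T1D (edgeR).

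Before adjustment, 6 members had a p-value under 0.05 in T1D against NGT mice (19.4%, edgeR), against 3.95% of all genes. Among them were the ligands Ccl8, Cxcl9, Cxcl13 and Cxcl16 and the receptor Ackr3, and all 6 had higher estimates in T1D mice. DESeq2 gave 5 members (against 4.99% of all genes), among them Ccl21a and Ccl21c, but no p-value for Ccl8, Cxcl9 and Cxcl16, which hold a count that it treats as an outlier. Without T1D mouse 1 the count was 1 (Ccl8, 3.23% of members), about the share of all genes in that fit (2.99%). Without NGT mouse 1 it was 10 (32.3%, against 7.31% of all genes), and Ackr2, Ccl6, Ccl9 and Cxcl12 were gained. Without NGT mouse 2 or NGT mouse 3 it was 2 each (6.45%, against 1.61% and 1.82%), with Cxcl9, Cxcl13, Cxcl16 and Ackr3 lost in both. In Lira against T1D mice, 5 members had an unadjusted p-value under 0.05 (16.1%, edgeR), against 3.33% of all genes. Among them were Ccl8, Cxcl9, Cxcl16 and Ackr3, and all 5 had lower estimates in Lira mice, while DESeq2 gave 3 members (against 4.44% of all genes), Ccl21c among them, and again no p-value for Ccl8, Cxcl9 and Cxcl16. Without T1D mouse 1 this count was 0, against 2.36% of all genes, and without Lira mouse 1 it was 2 (6.45%, against 1.86%). The comparisons share the T1D mice, so a high T1D mouse enters both with opposite sign.

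Most members had higher estimates in T1D mice. In T1D against NGT mice the log2 fold change was above 0 for 25 of 31 members (median 0.69), against 52.1% of all genes (median 0.02). Ligands had a median of 1.24, with 14 of 17 above 0, and receptors had a median of 0.66, with 11 of 14 above 0. Without T1D mouse 1 the median was 0.34 for ligands (12 of 17 above 0) and -0.14 for receptors (5 of 14 above 0), and it was -0.01 for all genes. In Lira against T1D mice, 0 of 17 ligands had a log2 fold change above 0 (median -0.57). Receptors were mixed in this comparison, with 6 of 14 above 0 and a median of -0.33. Over all genes 55.3% were above 0, with a median of 0.04. Without T1D mouse 1 the ligands had a median of -0.42 with 4 of 17 above 0, and the receptors had a median of 0.57 with 10 of 14 above 0, against 58.8% of all genes (median 0.07).

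**Figure D1:**
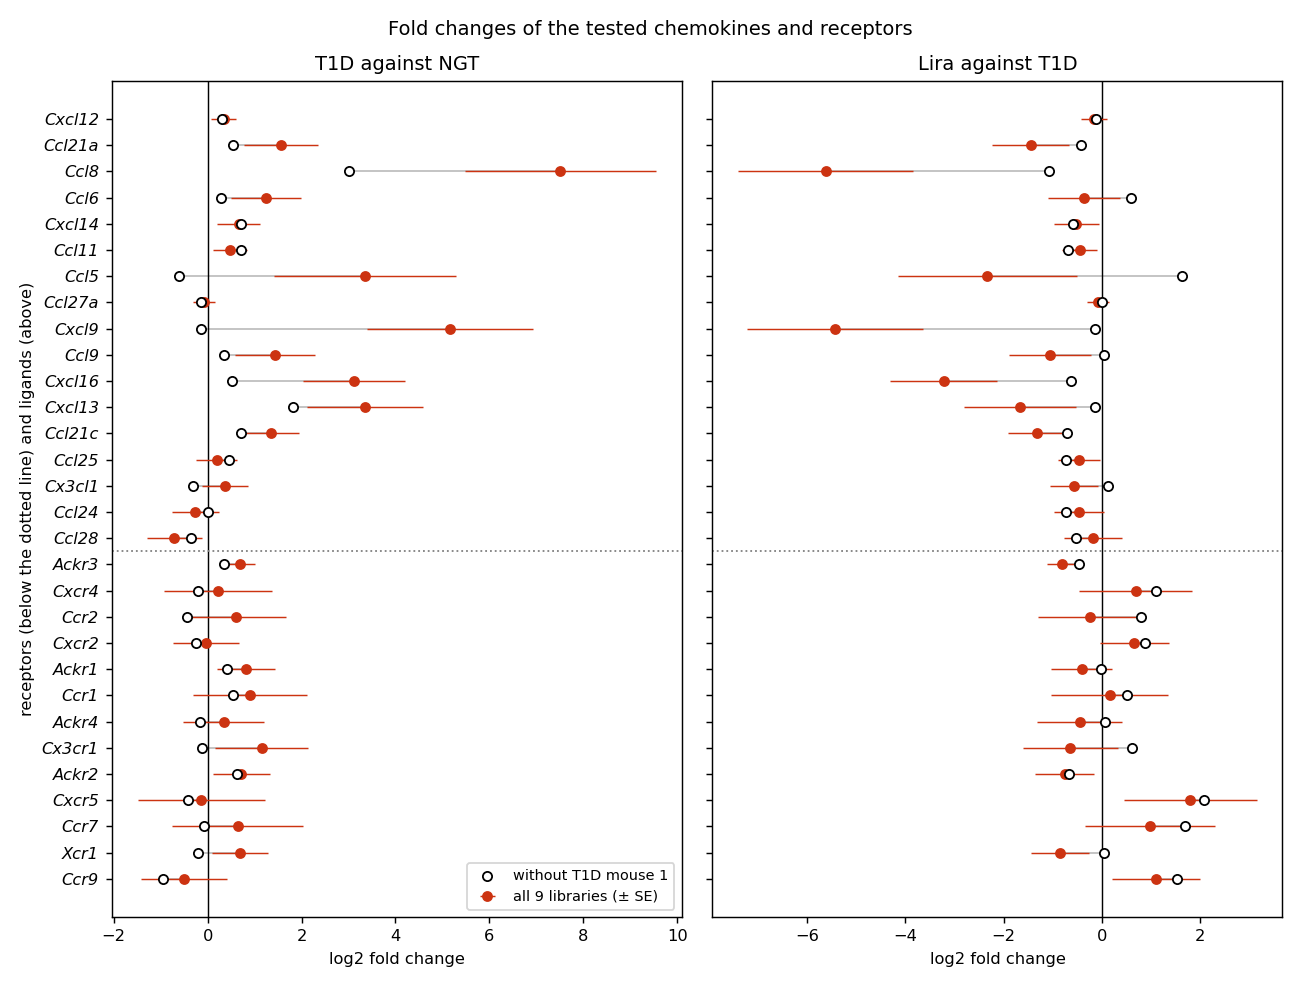
Log2 fold changes of 30 tested members (edgeR), T1D against NGT on the left and Lira against T1D on the right, ligands above the dotted line and receptors under it, each by mean FPKM. Filled points with bars are estimates ± SE from all 9 libraries and open points are estimates without T1D mouse 1. Cxcl9 moved from 5.16 to -0.14 and Ccl8 from 7.51 to 3.0 on the left, while Cxcl12 and Cxcl14 hardly moved.

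Cxcl12, the ligand that retains stem cells in the marrow, was the most abundant member per length by the mean of all 9 libraries, with 41.4 ± 26.1 FPKM (SD, n = 3) in NGT, 66.2 ± 22.6 FPKM in T1D and 47.0 ± 22.1 FPKM in Lira mice. FPKM values are scaled for gene length as well as depth, and so allow different genes to be compared. Within the T1D group alone the mean of Ccl8 was higher (70.3 ± 118 FPKM, SD, n = 3). The CPM of Cxcl12 was 181, 104 and 94.2 in NGT mice, 169, 165 and 147 in T1D mice, and 124, 127 and 179 in Lira mice 1 to 3. NGT mouse 1 and Lira mouse 3 were above all T1D mice, and the groups overlapped. The log2 fold change of Cxcl12 was 0.34 (SE 0.27) for T1D against NGT and -0.16 (SE 0.27) for Lira against T1D. Leaving out NGT mouse 1, its highest library, gave 0.69 for T1D against NGT (edgeR unadjusted p = 0.0126). Leaving out the highest control raises this estimate by construction. In that fit 7.31% of all genes had an unadjusted p under 0.05.

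Cxcl14 is a chemokine of resting tissues whose receptor is not settled. It had 23.5, 26.7 and 43.4 CPM in NGT, 44.6, 68.4 and 34.4 CPM in T1D, and 38.2, 50.3 and 14.4 CPM in Lira mice. The groups overlapped, with T1D mouse 2 highest and Lira mouse 3 lowest, and the log2 fold changes were 0.66 (SE 0.46) and -0.52 (SE 0.46). Ccl11, an eotaxin that draws eosinophils through Ccr3, had 12.8, 15.3 and 18.0 CPM in NGT, 13.6, 23.0 and 27.2 CPM in T1D, and 20.9, 17.2 and 8.67 CPM in Lira mice. T1D mice 2 and 3 stood above all other mice and T1D mouse 1 within the NGT range. The estimates were 0.47 (SE 0.36) and -0.45 (SE 0.36), and without T1D mouse 1 they were 0.71 and -0.69.

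Ccl21a encodes CCL21, which guides T cells and dendritic cells carrying Ccr7 into lymphoid tissue. Its level was 16.9, 3.45 and 13.2 CPM in NGT, 67.5, 11.3 and 21.5 CPM in T1D, and 4.67, 18.0 and 14.0 CPM in Lira mice. T1D mouse 1 was 3.14 times the next library, while T1D mouse 2 lay within the NGT range. The log2 fold change was 1.57 (SE 0.79, edgeR unadjusted p = 0.0804) for T1D against NGT, and 0.55 without T1D mouse 1. Lira against T1D gave -1.45 (SE 0.79), and -0.42 without that mouse. The copy Ccl21c, at 0.639 to 6.60 CPM, gave 1.34 (SE 0.60) and -1.32 (SE 0.60), or 0.72 and -0.70 without T1D mouse 1. Counts of both genes were in part not whole, and how reads were divided between these near-identical copies is uncertain. Markers of lymph node stroma and venules (Lyve1 among 5 genes, 4 tested) summed to 24.1 to 49.8 CPM in NGT, 48.5 to 96.8 CPM in T1D and 40.1 to 42.2 CPM in Lira mice, highest in T1D mouse 1. Madcam1 of that list was at 0 in 5 libraries, and the part of these cells in the result was not tested.

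Cxcl13, which gathers B cells carrying Cxcr5 into follicles, had 1.46, 0.0773 and 0.396 CPM in NGT, 15.7, 0.982 and 3.67 CPM in T1D, and 3.71, 2.10 and 0.574 CPM in Lira mice. T1D mice 1 and 3 lay above every NGT mouse, but T1D mouse 2 did not. The log2 fold change was 3.35 (SE 1.24, edgeR unadjusted p = 0.0248, adjusted 0.977) for T1D against NGT, and 1.81 (SE 1.11) without T1D mouse 1. It was 4.8 without NGT mouse 1, and without NGT mouse 2 or NGT mouse 3 its unadjusted p was 0.0626 and 0.077 (edgeR). Lira against T1D gave -1.67 (SE 1.14), and -0.13 without that mouse. Summed B cell markers overlapped between groups, at 17.8 to 108 CPM in NGT, 49.1 to 80.3 CPM in T1D and 34.4 to 234 CPM in Lira mice, with the highest level in Lira mouse 3.

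Cxcl9 and Cxcl10 are induced by interferon-gamma and draw activated T and NK cells through Cxcr3. Cxcl9 had 2.46, 1.47 and 1.53 CPM in NGT mice, 194, 1.36 and 1.91 CPM in T1D mice and 0.673, 1.80 and 2.08 CPM in Lira mice. T1D mouse 1 was 78.7 times the next library, and the other T1D mice lay within or under the NGT range. The log2 fold change of 5.16 (SE 1.76, edgeR unadjusted p = 0.0176, adjusted 0.977) for T1D against NGT became -0.14 (SE 0.56) without T1D mouse 1, and that of -5.44 (SE 1.79) for Lira against T1D became -0.14. Cxcl10 was under the count minimum. It reached 19.8 CPM (365 counts) in T1D mouse 1, 0.458 and 0.333 CPM in the other T1D mice, 0 to 0.317 CPM in NGT mice and 0.0779 to 0.402 CPM in Lira mice.

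Cxcl16, a membrane-bound chemokine that is shed and acts on Cxcr6, showed the same pattern of 1 high mouse. It had 2.41, 1.70 and 1.5 CPM in NGT, 43.8, 3.14 and 2.27 CPM in T1D, and 0.856, 2.57 and 1.84 CPM in Lira mice. T1D mouse 1 was 13.9 times the next library, and T1D mouse 3 lay within the NGT range. The estimates of 3.12 (SE 1.09, edgeR unadjusted p = 0.0193, adjusted 0.977) and -3.22 (SE 1.09) became 0.53 (SE 0.51) and -0.62 (SE 0.50) without T1D mouse 1. Exons of Cxcl16 overlap those of Zmynd15 on the other strand, and whether counting used the strand is not given in the sources used here.

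The sequence before the start is shown for Cxcl9, Cxcl10, Cxcl1, Cxcl2 and Ccl8, which are some of the genes that were highest in T1D mouse 1. Matches to short motifs of NF-κB and interferon-activated factors can be seen in them. Each is the 250 bases before the annotated start, on the gene's strand, from RefSeq (GRCm38.p6, which is not the mm9 build named in the labels). Capitals mark GAAANNGAA, the core of the interferon-stimulated response element, or GGGNNTTTC, the start of a kB site, on either strand. TTCNNNGAA, the gamma-activated site, was searched as well and is in none of these 5.
Cxcl9 (chr5:92328080-92328329, minus strand): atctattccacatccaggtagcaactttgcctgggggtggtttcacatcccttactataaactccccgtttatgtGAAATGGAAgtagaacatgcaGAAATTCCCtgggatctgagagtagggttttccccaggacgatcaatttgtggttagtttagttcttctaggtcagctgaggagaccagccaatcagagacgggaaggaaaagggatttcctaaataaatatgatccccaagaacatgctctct
Cxcl10 (chr5:92348890-92349139, minus strand): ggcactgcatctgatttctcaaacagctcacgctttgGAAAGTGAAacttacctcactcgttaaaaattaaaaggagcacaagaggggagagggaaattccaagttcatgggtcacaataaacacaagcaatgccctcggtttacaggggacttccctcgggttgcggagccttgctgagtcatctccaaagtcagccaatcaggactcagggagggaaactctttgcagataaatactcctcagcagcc
Cxcl1 (chr5:90890995-90891244, plus strand): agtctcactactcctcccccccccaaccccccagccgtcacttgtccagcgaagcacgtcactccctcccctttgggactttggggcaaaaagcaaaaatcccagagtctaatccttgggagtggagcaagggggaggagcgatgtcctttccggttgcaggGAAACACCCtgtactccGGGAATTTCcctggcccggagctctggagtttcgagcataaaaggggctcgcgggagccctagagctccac
Cxcl2 (chr5:90903649-90903898, plus strand): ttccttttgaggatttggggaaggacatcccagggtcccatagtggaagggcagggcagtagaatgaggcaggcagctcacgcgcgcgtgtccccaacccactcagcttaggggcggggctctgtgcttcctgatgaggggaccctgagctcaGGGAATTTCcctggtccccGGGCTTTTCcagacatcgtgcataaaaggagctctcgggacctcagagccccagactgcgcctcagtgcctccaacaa
Ccl8 (chr11:82114935-82115184, plus strand): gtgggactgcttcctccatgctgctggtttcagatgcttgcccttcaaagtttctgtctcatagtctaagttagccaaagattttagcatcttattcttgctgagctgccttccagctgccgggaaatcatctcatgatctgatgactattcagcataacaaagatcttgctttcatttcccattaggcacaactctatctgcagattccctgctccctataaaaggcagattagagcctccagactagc

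The interferon element core began 175 bases before the start of Cxcl9 and 213 bases before that of Cxcl10. The kB start lay 154 bases before Cxcl9, 71 and 88 bases before Cxcl1, and 78 and 97 bases before Cxcl2, and Ccl8 held none of the 3 motifs in this window. Other forms of kB sites were not searched, so a window without a match, such as that of Cxcl10, may still hold one. Of the 45 member genes with a sequence in the table, 12 held the kB start. Some genes have several starts, and counted by window the kB start was in 12 of 52 member windows (23.1%), against 3.72% of 32851 windows of the same length before all genes. The interferon element core was in 8 of 52 (15.4%), against 7.13%, and the gamma-activated site in 4 of 52 (7.69%), against 7.02%. Among other members highest in T1D mouse 1, Ccl9 and Ccr2 held a motif, and Ackr3, Ccl6, Ccl21a and Cxcl13 held none. Cxcr2, Cxcr4 and Cxcl14, highest in other mice, also held a motif. These are matches of letters, and binding was not measured. Ccl5, Ccl2, Ccl7, Ccl4, Ccl11, Ccl24, Ccl21c, Cxcl5, Cxcl16, Cxcl17, Ccr7, Ccr10 and Cxcr5 were among those not matched to a sequence.

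Ccl8, in mice a ligand of Ccr8, had the largest log2 fold change of the 31 tested members in T1D against NGT and was the one tested member in which every T1D mouse lay above every NGT mouse. Its level was 0.254, 0.0773 and 0.0792 CPM in NGT mice (4, 1 and 1 counts), 80.1, 1.24 and 1.13 CPM in T1D mice, and 0.214, 1.32 and 0.172 CPM in Lira mice. T1D mouse 1 was 60.5 times the next library, which was Lira mouse 2. The estimate was a log2 fold change of 7.51 (SE 2.03, edgeR unadjusted p = 0.00538, adjusted 0.977) for T1D against NGT, and 3.0 (SE 1.01, unadjusted p = 0.0188) without T1D mouse 1. For Lira against T1D it was -5.62 (SE 1.78, unadjusted p = 0.0123), and -1.08 (SE 0.92, unadjusted p = 0.274) without that mouse. With so few counts in NGT mice, the size of these estimates depends on the model. Such a full separation of groups with T1D above NGT was seen in 1 of 31 members, against 3.52% of all genes, and with T1D below NGT in 0 of 31, against 5.08% of all genes.

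Ccl6 and Ccl9 are chemokines of myeloid cells that bind Ccr1. Ccl6 had 29.9, 6.11 and 14.6 CPM in NGT, 78.2, 17.5 and 23.7 CPM in T1D, and 18.8, 19.9 and 54.5 CPM in Lira mice. T1D mouse 1 and Lira mouse 3 were highest and all groups overlapped, with log2 fold changes of 1.24 (SE 0.74) and -0.36 (SE 0.73), or 0.28 and 0.60 without T1D mouse 1. Leaving out NGT mouse 1, the highest NGT library for Ccl6 and Ccl9, raises both estimates by construction. Ccl6 then gave 1.94 for T1D against NGT (edgeR unadjusted p = 0.047), in a fit with 7.31% of all genes under 0.05. Ccl9 ranged from 3.30 to 65.1 CPM and gave 1.44 (SE 0.85) and -1.06 (SE 0.84), or 0.34 and 0.04 without T1D mouse 1, and 2.26 for T1D against NGT without NGT mouse 1 (edgeR unadjusted p = 0.046). Ccl5, a product of T cells and platelets that binds Ccr1 and Ccr3, ranged from 0 to 31.3 CPM, again with T1D mouse 1 highest. It gave 3.35 (SE 1.93) and -2.33 (SE 1.83), and both estimates changed sign without T1D mouse 1, to -0.60 and 1.63.

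The other tested ligands had no unadjusted p under 0.05 in either comparison in edgeR. Ccl27a, a skin chemokine for Ccr10, ranged only from 4.61 to 6.22 CPM over the 9 mice, with log2 fold changes of -0.07 (SE 0.23) and -0.08 (SE 0.23), and its exons overlap Il11ra1. Cx3cl1, or fractalkine, ranged from 2.70 to 9.57 CPM (0.38, SE 0.49, and -0.57, SE 0.49), and both estimates changed sign without T1D mouse 1, its highest library (-0.32 and 0.13). Ccl25, the gut and thymus ligand of Ccr9, ranged from 1.71 to 4.67 CPM (0.19, SE 0.43, and -0.46, SE 0.43). Ccl24, a further eotaxin, stood at 0.517 to 1.52 CPM (-0.26, SE 0.50, and -0.46, SE 0.51), and without T1D mouse 1 the first of these was 0.01. Ccl28, a mucosal ligand of Ccr10, stood at 0.447 to 1.88 CPM (-0.71, SE 0.59, and -0.18, SE 0.60). Without T1D mouse 2, its highest T1D library, its estimates were -1.56 (edgeR unadjusted p = 0.0217) and 0.65. For T1D against NGT, 5.2% of all genes had an unadjusted p under 0.05 in that fit.

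**Figure D2:**
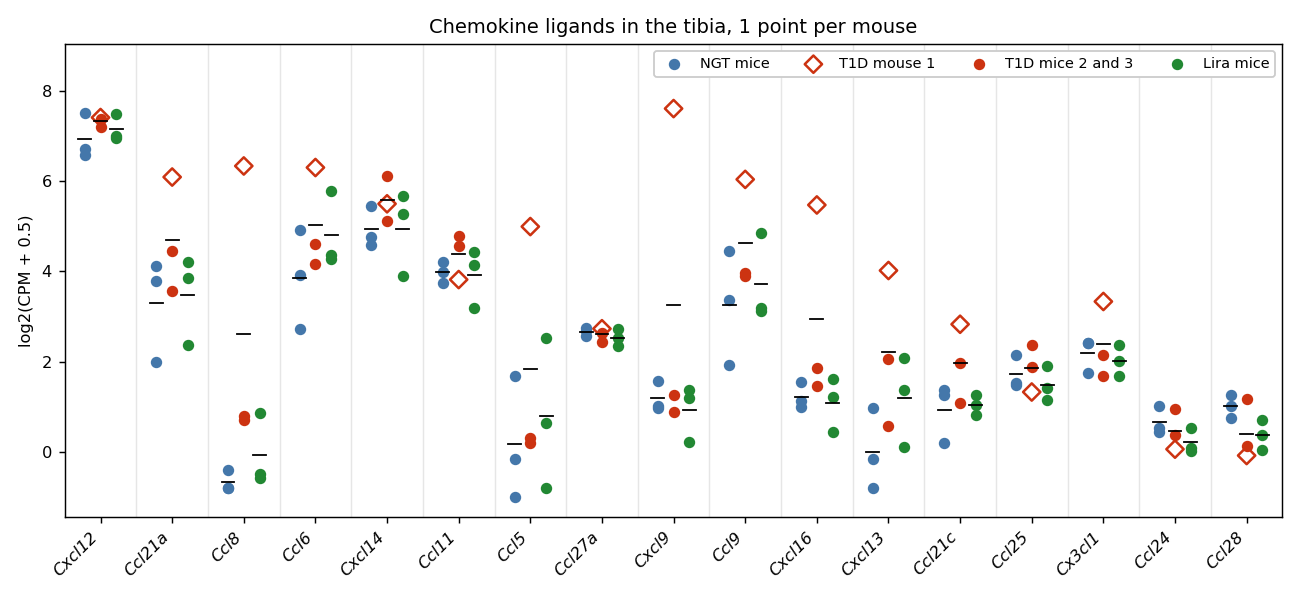
Levels of the 17 tested ligands as log2(CPM + 0.5), ordered by mean FPKM, with 1 point per mouse, T1D mouse 1 as an open diamond and black bars at group means (n = 3). Cxcl9 stands at 194 CPM in T1D mouse 1 and at 0.673 to 2.46 CPM in the other 8 mice, while Cxcl12 and Ccl27a lie close together in all mice.

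Below the count minimum were 19 ligands, and among them the inflammatory ligands of monocytes and neutrophils were highest in T1D mouse 1. Ccl2, the main ligand of Ccr2, had 0.444, 0 and 0.0792 CPM in NGT, 7.34, 1.64 and 0.467 CPM in T1D, and 0.143, 0.156 and 0.230 CPM in Lira mice. In CPM every T1D mouse exceeded every NGT and every Lira mouse, but T1D mouse 3 only narrowly. T1D mouse 3 and NGT mouse 1 each had 7 counts of Ccl2, so only the scaling set them apart. The related Ccl7 and Ccl12 reached 6.52 and 2.83 CPM in T1D mouse 1. The neutrophil ligands Cxcl1, Cxcl2, Cxcl3 and Cxcl5 reached 4.29, 0.632, 0.346 and 1.85 CPM in that mouse. Ccl22, which shares the receptor Ccr4 with Ccl17, reached 2.83 CPM there, and Ccl3 and Ccl4, which draw monocytes and T cells, reached 1.20 and 0.652 CPM.

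Ccl17 differed from the rest of these ligands in that T1D mouse 2 was highest, with 8.97 CPM (137 counts). It had 1.41 CPM in T1D mouse 1, 0.230 CPM in Lira mouse 3 and 0 in the other 6 mice, NGT mice included. The highest level was 2.09 CPM for Ccl27b, a near-identical copy of Ccl27a, 0.459 CPM for Xcl1, which calls dendritic cells with Xcr1, and 0.163 CPM each for Ccl1 and Cxcl17. The lymphoid ligand Ccl19, the lung chemokine Cxcl15 and Ccl20, the ligand of Ccr6, reached 0.108, 0.126 and 0.0544 CPM, below the level that a count of 0 allows.

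Ackr3, the atypical receptor that binds and removes Cxcl12, was the most abundant receptor per length by the mean of all 9 libraries (11.3 ± 4.67 FPKM in NGT, SD, n = 3). In Lira mice Cxcr4 had the higher mean, at 17.1 ± 22.2 FPKM against 9.93 ± 1.59 FPKM (SD, n = 3). Ackr3 had 28.6, 20.1 and 19.6 CPM in NGT mice, 52.7, 32.1 and 26.4 CPM in T1D mice, and 21.7, 26.2 and 15.4 CPM in Lira mice. Every Lira mouse lay below every T1D mouse, by a small margin between Lira mouse 2 and T1D mouse 3, while T1D and NGT overlapped. The log2 fold change of Ackr3 was 0.70 (SE 0.31, edgeR unadjusted p = 0.0487, adjusted 0.977) for T1D against NGT and -0.81 (SE 0.31, unadjusted p = 0.0279, adjusted 0.978) for Lira against T1D. Without T1D mouse 1 the estimates were 0.36 (SE 0.27) and -0.47 (SE 0.27, unadjusted p = 0.122). Ackr3 was the 1 of 31 tested members with every Lira mouse below every T1D mouse, against 3.4% of all genes. With every Lira mouse above every T1D mouse there were 0 of 31 members, against 3.73% of all genes.

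The receptors of circulating myeloid cells varied widely within every group. Cxcr4, the signaling receptor of Cxcl12, had 30.9, 2.01 and 11.6 CPM in NGT, 26, 4.06 and 21.8 CPM in T1D, and 12.2, 4.44 and 67.0 CPM in Lira mice. Mouse 2 was lowest in each group and Lira mouse 3 highest of all, and the groups overlapped fully (log2 fold change 0.22, SE 1.15, and 0.69, SE 1.15, or -0.20 and 1.11 without T1D mouse 1). Cxcr2, the main receptor of neutrophil chemokines, had 20.2, 5.62 and 9.17 CPM in NGT, 14.7, 5.59 and 14.1 CPM in T1D, and 11.9, 6.27 and 36.0 CPM in Lira mice (-0.03, SE 0.70, and 0.66, SE 0.70). Its order among mice was like that of Cxcr4, with Lira mouse 3 highest.

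Ccr2, the receptor that brings monocytes out of the marrow, had 28.1, 1.77 and 8.62 CPM in NGT, 39.3, 8.17 and 10.9 CPM in T1D, and 7.54, 4.74 and 36.9 CPM in Lira mice. The groups overlapped (0.60, SE 1.07, and -0.24, SE 1.06), and both estimates changed sign without T1D mouse 1 (-0.43 and 0.79). Ccr1, which binds Ccl3, Ccl5, Ccl6 and Ccl9, had 8.31, 0.0773 and 2.45 CPM in NGT, 9.73, 4.26 and 6.34 CPM in T1D, and 5.35, 1.01 and 16.4 CPM in Lira mice. NGT mouse 2 was far below the others and the groups overlapped (0.90, SE 1.21, and 0.16, SE 1.19). Ackr1, which holds many inflammatory chemokines on venules, had 5.65, 1.70 and 2.77 CPM in NGT, 8.92, 4.52 and 4.54 CPM in T1D, and 2.71, 2.34 and 8.44 CPM in Lira mice. It overlapped between groups as well (0.82, SE 0.62, and -0.41, SE 0.62), and its exons overlap those of Cadm3 on the same strand.

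Of the less abundant receptors, Cx3cr1, the fractalkine receptor of monocytes and osteoclast precursors, ranged from 0.986 to 11.3 CPM (1.15, SE 0.99, and -0.64, SE 0.97). Both estimates changed sign without T1D mouse 1 (-0.12 and 0.62), as did those of Ackr4 (-0.17 and 0.06) and Xcr1 (-0.21 and 0.05). The scavenger Ackr4 of Ccl19, Ccl21 and Ccl25 ranged from 0.234 to 5.21 CPM (0.34, SE 0.87, and -0.45, SE 0.87), and Ackr2, which removes inflammatory CC chemokines, from 0.712 to 3.74 CPM (0.72, SE 0.60, and -0.76, SE 0.60). For T1D against NGT, Ackr2 gave 1.68 without NGT mouse 1, its highest library (edgeR unadjusted p = 0.0123). In that fit 7.31% of all genes had an unadjusted p under 0.05. Xcr1, a marker of cross-presenting dendritic cells, ranged from 0.733 to 3.43 CPM (0.69, SE 0.59, and -0.85, SE 0.59). The lymphocyte receptors Cxcr5, Ccr7 and Ccr9 were highest in Lira mouse 3, at 5.23, 3.04 and 1.78 CPM, and Cxcr5 and Ccr7 were at 0 to 0.158 CPM in NGT mouse 2 and Lira mouse 2. Their log2 fold changes for T1D against NGT were -0.13 (SE 1.36), 0.64 (SE 1.4) and -0.50 (SE 0.92), and those for Lira against T1D were 1.80 (SE 1.35), 0.98 (SE 1.33) and 1.10 (SE 0.90). Without T1D mouse 1 those of Ccr7 were -0.07 and 1.69.

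**Figure D3:**
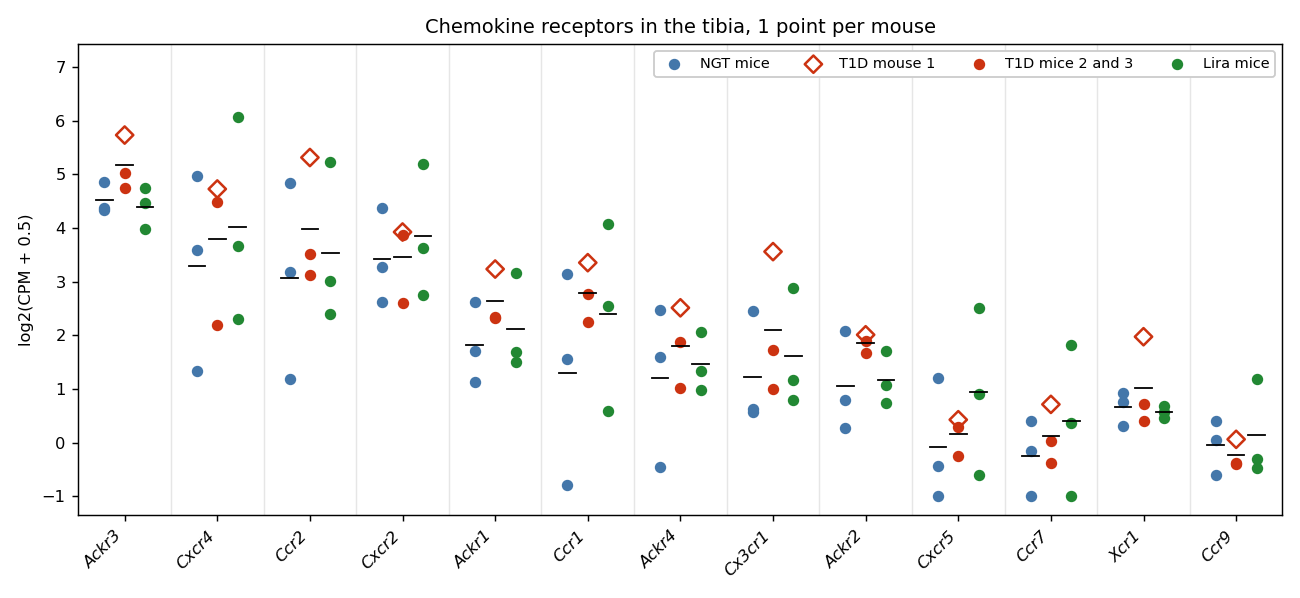
Levels of 13 tested receptors as log2(CPM + 0.5), ordered by mean FPKM, with 1 point per mouse, T1D mouse 1 as an open diamond and black bars at group means (n = 3). Ackr3 is highest in T1D mouse 1 at 52.7 CPM, while Cxcr4, Ccr2 and Cxcr2 spread widely in each group.

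Below the count minimum were 9 receptors. The highest levels were 1.74 CPM for Cxcr3 and 1.69 CPM for Cxcr6, both T cell receptors and both in T1D mouse 1, and 2.58 CPM for the eosinophil receptor Ccr3 in Lira mouse 3. Ccr10 and Ccr4, receptors of skin-homing T cells, reached 0.317 and 0.437 CPM in NGT mouse 1. Ccr6, the neutrophil receptor Cxcr1, Ccr8 and the Ccr1-like gene Ccr1l1 reached 0.344, 0.287, 0.109 and 0.0635 CPM. Over the 28 ligands and receptors under the minimum, the highest level was in T1D mouse 1 for 18, in Lira mouse 3 for 6 and in NGT mouse 1 for 3. Exons of Ackr4, Ccl25, Ccr9, Cx3cr1, Cxcr5 and Xcl1 overlap those of genes on the other strand, so that without strand the reads of such a pair cannot be told apart. Ccr9 also overlaps Gm17200 on its own strand.

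The library in which each member was highest was counted as well. T1D mouse 1 was the highest library for 10 of 17 tested ligands and 7 of 14 tested receptors, against 20.7% of all genes, and Lira mouse 3 for 0 of 17 ligands and 6 of 14 receptors, against 19.9% of all genes. Marker genes moved with both. Monocyte and macrophage markers (11 of 12 tested, Marco at 0 in 5 libraries) summed to 50.9 to 389 CPM in NGT, 129 to 2150 CPM in T1D and 138 to 651 CPM in Lira mice, with the 2150 CPM in T1D mouse 1 and 129 and 251 CPM in the other T1D mice. Of these markers, 6 of 11 had an unadjusted p under 0.05 in T1D against NGT mice in edgeR (54.5%, against 3.95% of all genes), 0 were called, and the list's median log2 fold change of 2.54 became 0.40 without T1D mouse 1. Osteoclast markers summed to 7.42 to 73.0 CPM in NGT, 64.8 to 248 CPM in T1D and 10.4 to 121 CPM in Lira mice.

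Neutrophil markers summed to 3.87 to 2350 CPM in NGT, 53.2 to 1460 CPM in T1D and 111 to 5110 CPM in Lira mice, and the 5110 CPM belonged to Lira mouse 3, which also had the highest Cxcr2 and Cxcr4. NGT mouse 2, with 3.87 CPM, had the lowest Ccr1, Ccr2 and Cxcr4. T and NK cell markers (7 of 12 tested) stood at 1.54 to 16.5 CPM in NGT, 4.53 to 26.6 CPM in T1D and 2.14 to 42.1 CPM in Lira mice, and dendritic cell markers at 9.29 to 24, 14.6 to 25.2 and 10.8 to 29.5 CPM. Erythroid, platelet and plasma cell markers ranged over 373 to 27300, 4.28 to 158 and 106 to 176 CPM, and endothelial markers over 264 to 466 CPM. The part of these cells in the results was not tested.

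Ligands were also set against the matching receptor, as the summed CPM of the ligands each receptor is known to bind, for 15 receptors from a list of pairs written by hand, each with at least 1 tested gene. The ligand sum was highest in T1D mouse 1 for 10 receptors. The receptor itself was highest in T1D mouse 1 for 7, in Lira mouse 3 for 7 and in NGT mouse 1 for 1, and for 5 receptors the same mouse was highest for both. The scavengers Ackr1, Ackr2 and Ackr4, which bind many ligands, were not in that list of pairs. Not counted for want of a tested gene were Ccr4, whose ligands Ccl17 and Ccl22 summed highest in T1D mouse 2 (9.3 CPM, against 4.24 CPM in T1D mouse 1), and Ccr6. Values were compared as log2(CPM + 0.5) by an exact two-sided permutation test of mouse labels, for which 0.1 is the smallest p-value in groups of 3.

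For Cxcr3 the sum of Cxcl9 and Cxcl10 was 214 CPM in T1D mouse 1 and 1.03 to 2.78 CPM in the other mice. The receptor was at 1.74 CPM in T1D mouse 1, at 1.44 CPM in Lira mouse 3 and at 0 to 0.508 CPM elsewhere, so receptor and ligand were both highest in T1D mouse 1. The Ccr2 ligands (Ccl2, Ccl7 and Ccl12) summed to 0.762, 0 and 0.317 CPM in NGT, 16.7, 3.99 and 0.667 CPM in T1D, and 0.285, 0.312 and 0.344 CPM in Lira mice, a difference of -2.46 for Lira against T1D on the log2 scale (exact p = 0.1), or -1.49 without T1D mouse 1. Lira mouse 3 had little ligand beside 36.9 CPM of Ccr2. For Ccr8 the ligands Ccl1 and Ccl8 differed by 3.28 for T1D against NGT (exact p = 0.1), or 1.42 without T1D mouse 1, whereas Ccr8 itself reached only 0.109 CPM in any mouse.

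The Ccr3 ligands (Ccl5, Ccl11 and Ccl24) were 17.1, 16.2 and 19.3 CPM in NGT, 45.4, 25.1 and 28.7 CPM in T1D, and 22.6, 18.2 and 14.5 CPM in Lira mice. All T1D mice exceeded all others, by 0.86 over NGT and with -0.80 for Lira against T1D on the log2 scale (exact p = 0.1 for each), while Ccr3 was at most 0.800 CPM in T1D mice. In T1D mouse 1, Ccl5 made up 31.3 CPM of the sum. The eotaxins Ccl11 (13.6 CPM) and Ccl24 (0.544 CPM) were within or under the NGT range in that mouse. In T1D mice 2 and 3, Ccl11 stood at 23.0 and 27.2 CPM. The Ccr10 ligands (Ccl27a and Ccl28) differed by -0.16 for T1D against NGT (exact p = 0.1), a small difference with all T1D mice (6.35 to 6.65 CPM) under all NGT mice (6.96 to 8.11 CPM). Ackr3 was the 1 receptor of 15 at this limit, for Lira against T1D. With 3 ligand sums at the limit in T1D against NGT and 2 in Lira against T1D, and 0 and 1 receptors, none of 60 such comparisons could reach 0.05. Shuffled labels reach this smallest p-value with a probability of 0.1. Of all genes, 3.52% lay fully above and 5.08% fully below NGT in T1D mice. For Lira against T1D these shares were 3.73% and 3.4%. The counts of sums and receptors at the limit are therefore descriptions.

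**Figure D4:**
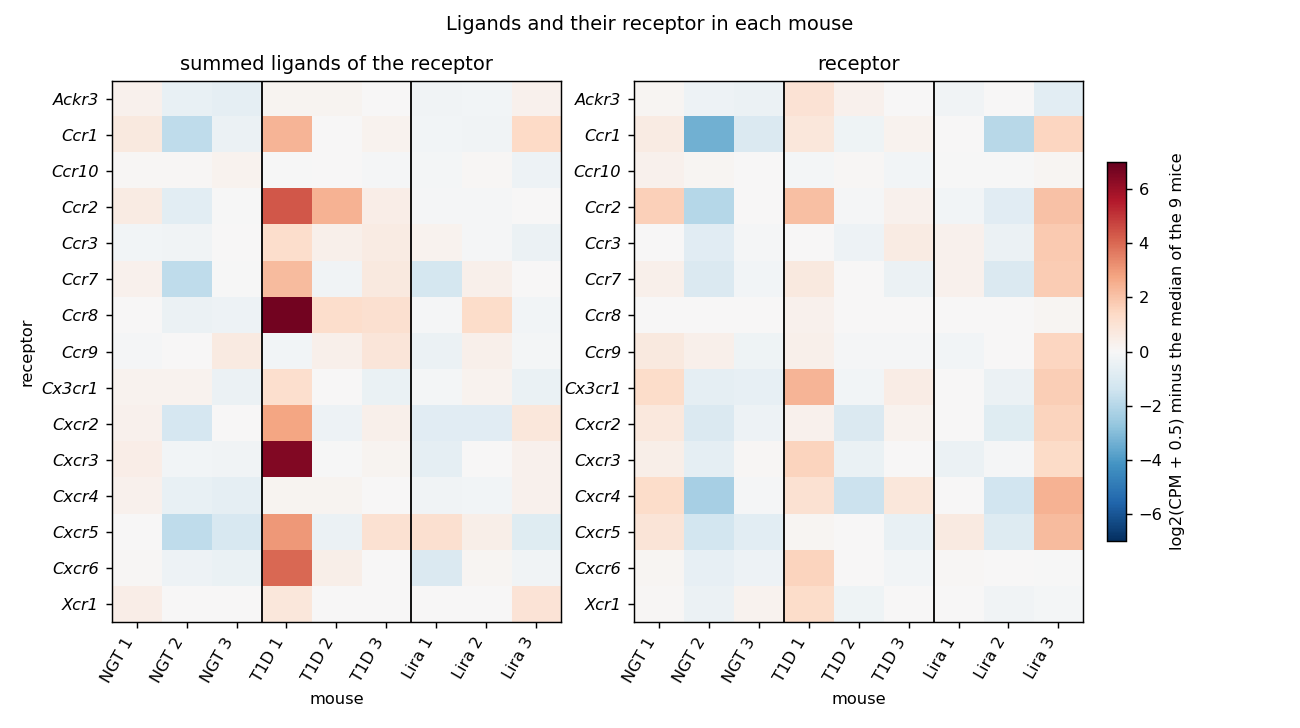
Summed CPM of the ligands of 15 receptors (left) and CPM of the receptor (right) in each mouse, coloured by log2(CPM + 0.5) minus the median of the 9 mice, red above and blue below it. The ligand columns are reddest in T1D mouse 1 (10 of 15 highest there), and the receptor columns in T1D mouse 1 (7 of 15) and Lira mouse 3 (7 of 15).

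Since the mouse numbers of NGT and T1D went together in the check of pairing, the members were also compared number by number. No source describes a pairing, and the check used these same expression values. The paired counts and p-values are therefore descriptions. The T1D mouse was above the NGT mouse in 3 of 3 pairs for 15 of 31 members (9 ligands and 6 receptors), against 19.2% of all genes, and below it in 3 of 3 pairs for 0 of 31, against 19.0%. In log2(CPM + 0.5) the pairs differed by 6.74, 1.59 and 1.5 for Ccl8, by 3.04, 1.36 and 2.22 for Cxcl13 and by 1.57, 2.03 and 0.52 for Ccl9. For Cxcl9 they differed by 6.03, -0.09 and 0.24. A fit of the NGT and T1D libraries with the replicate number as a block, chosen after seeing the data, gave 11 members at an unadjusted p under 0.05 (35.5%, edgeR), against 14.0% of all genes. Among them were Ccl5, Ccl6, Ccl8, Ccl9, Ccl21a, Ccl21c, Cxcl13, Ackr1, Ackr3 and Cx3cr1, all 11 higher in T1D mice, and the lowest adjusted p-value was 0.232, so 0 were called. Cxcl9 and Cxcl16 were not among them (edgeR unadjusted p = 0.143 and 0.0506), nor with a block over all 9 libraries (unadjusted p = 0.134 and 0.0674). With the block in the NGT and T1D libraries their log2 fold changes were 2.76 (SE 1.61) and 2.04 (SE 0.81), against 5.16 and 3.12 without a block.

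**Figure D5:**
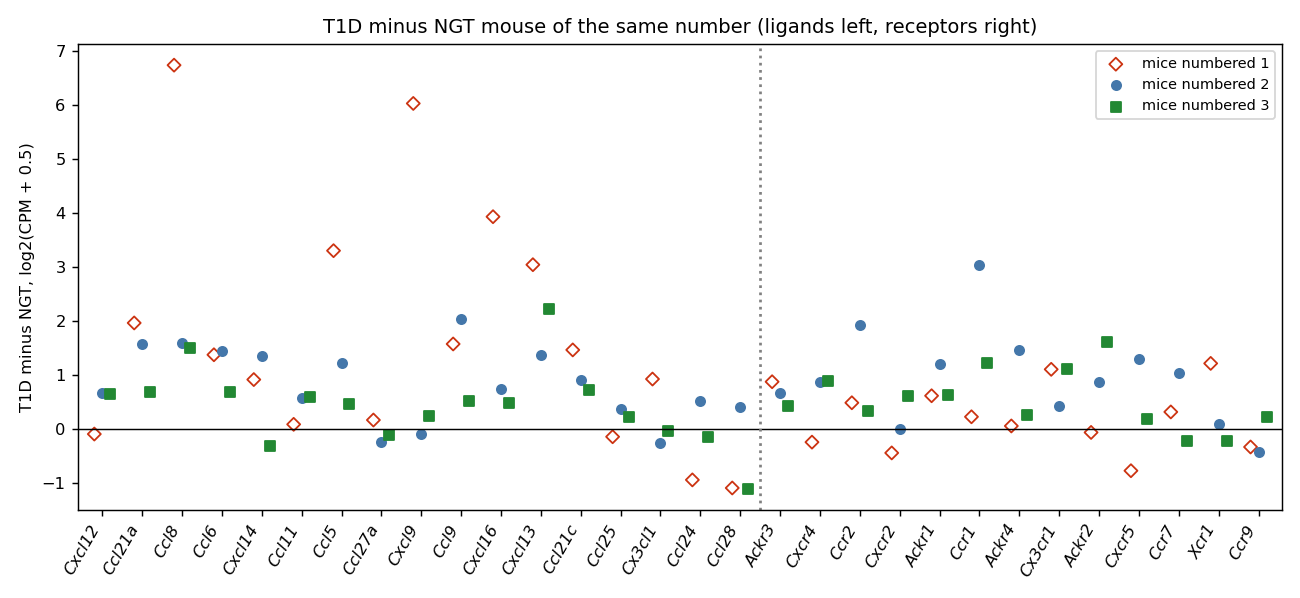
Difference between the T1D and the NGT mouse of the same number in log2(CPM + 0.5), for the 17 tested ligands left and 13 tested receptors right of the dotted line. Ccl8, Ccl6, Ccl9, Ccl21a and Cxcl13 lie above 0 in all 3 pairs, and Cxcl9 only in 2.

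Genes that act around the chemokines were counted from lists written by hand, at an unadjusted p under 0.05 in edgeR, and 0 genes of each list were called in either comparison. Of the interferon genes (17 tested), which induce Cxcl9 and Cxcl10 or share their induction, 5 were higher and 1 was lower in T1D against NGT mice (35.3%, against 3.95% of all genes), with a median log2 fold change of 0.92, or 0.16 without T1D mouse 1. Gbp2, a guanylate-binding protein induced by interferon, had 10.5, 8.35 and 6.97 CPM in NGT, 165, 11.2 and 9.47 CPM in T1D, and 6.35, 12 and 9.70 CPM in Lira mice (2.85, SE 1.02, for T1D against NGT). T1D mouse 1 was again far above the rest, and without it the estimate was 0.26 (SE 0.32). In Lira against T1D mice, Gbp2 was the 1 gene of the list that was lower (5.88%, against 3.33% of all genes, -2.73, SE 1.01, or -0.14 without T1D mouse 1), and 0 were higher. Ifngr2, a subunit of the interferon-gamma receptor, was at 97.4, 129 and 166 CPM in NGT and 79.5, 89.1 and 87.5 CPM in T1D mice (-0.61, SE 0.22). Ifng itself was under the count minimum, with at most 0.598 CPM and 0 in 5 libraries.

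Of the NF-κB and lymphotoxin genes (17 tested), 1 was higher and 0 were lower in T1D mice (5.88%, near the share of all genes), with a median of 0.15, or -0.07 without T1D mouse 1. That gene was Nfkbia, the inhibitor that NF-κB itself induces, with 50.5, 41.6 and 42.2 CPM in NGT, 81.1, 54.7 and 102 CPM in T1D, and 50, 57.6 and 57.3 CPM in Lira mice (0.82, SE 0.22, unadjusted p = 0.00539, adjusted 0.977, edgeR, or 0.81 without T1D mouse 1). All T1D mice exceeded all NGT mice, and T1D mouse 3 was the highest. Nfkbia was also the 1 gene of this list that was lower in Lira than in T1D mice (5.88%, against 3.33% of all genes, -0.53, SE 0.22), where Lira and T1D mice overlapped. Of the receptor signaling genes (36 tested), 1 was higher (2.78%, below the share of all genes), the G protein subunit Gng2 (0.81, SE 0.32), with a list median of 0.25, or -0.05 without T1D mouse 1, and 0 were higher or lower in Lira mice. The proteases and shedding factors (12 tested) had 2 higher in T1D (16.7%, against 3.95% of all genes, Mmp14 and Mmp12) and 2 lower in Lira mice (16.7%, against 3.33%, Mmp14 and Sdc1). The list's median for T1D against NGT was 0.27, or -0.15 without T1D mouse 1. Mmp14, a membrane protease that cuts chemokines and matrix, was the one in both counts (1.53, SE 0.51, and -1.43, SE 0.51), at 16 to 36.0 CPM in NGT and 139, 37.6 and 42.0 CPM in T1D mice. Leaving out T1D mouse 1 gave 0.65 (SE 0.30) and -0.55 (SE 0.30). Of 8 related genes outside the symbol rule, such as chemerin (Rarres2) and its receptor Cmklr1, Rarres2 alone had an unadjusted p under 0.05 in either comparison (12.5% of the list in each, against 3.95% and 3.33% of all genes, 0.82, SE 0.29, and -0.90, SE 0.29).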

How the data were processed

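RNA of 9 tibias (3 NGT, 3 T1D and 3 Lira mice) was sequenced after oligo(dT) enrichment. The authors aligned clean reads to the mouse genome (mm9 in the submitters' processing notes). The authors deposited expected counts per gene without normalization, of which 30.2% were not whole, and FPKM values, scaled by them for gene length and for depth. The aligner, counting tool, annotation and strand setting are not given in the sources used here. The authors' own group means and comparison columns (fold changes, p-values) were not used. All sample columns were mapped to their mouse by title, and 0 were left without a sample. Each library was taken as a separate mouse.

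The counts were rounded, and the 13960 of 18272 genes that reached 10 counts in 3 or more of 9 libraries were tested with edgeR 4.0.16 in R 4.3.3 (TMM, glmQLFit, glmQLFTest, 1 mean per group over all 9 libraries, Benjamini-Hochberg adjustment). Standard errors were derived from the F statistic. A call needed a fold change over 2 with an adjusted p-value under 0.05. Alternatives were DESeq2 1.42.0, library size in place of TMM, no filter, a replicate block, fits of only the 2 groups compared, limma 3.58.1 on log2(FPKM + 0.1), no fold threshold and leaving out each mouse. A block over the NGT and T1D libraries alone was added after seeing the data.

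As a check of pairing, same-numbered NGT and T1D mice were correlated by their deviations from group means across genes (r = 0.583, 0.647 and 0.283). Each was over 0.1 and the numbers were taken as pairs, although no source describes a pairing. Those of T1D and Lira mice (r = -0.244, 0.615 and 0.271) were not.

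The 6 most abundant ligands and receptors by FPKM, and members at an unadjusted p under 0.05, are given in every mouse, and others by range. Of each of 5 pathway lists at most the 3 genes with the lowest p were named, and 13 marker lists were summed. The members and lists were chosen with earlier results of these data known. Members were matched to RefSeq by gene ID, 59 of 59 with the same symbol. The values of 1 tested member are not reported here, and it stays in the counts over members.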

Additional observations from a re-analysis of the deposited data

How the results depend on the processing

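Under every alternative run, 0 members were called in either comparison. At an unadjusted p under 0.05, T1D against NGT gave 6 of 31 members as reported, 13 of 59 without the low-count filter, 2 with limma on log2(FPKM + 0.1), 11 with the replicate block in the NGT and T1D libraries, and 1 to 10 when 1 mouse was left out (1 without T1D mouse 1, 10 without NGT mouse 1). Lira against T1D gave 5 as reported, 3 in DESeq2 (which gave no p-value for Ccl8, Cxcl9 and Cxcl16), 11 of 59 without the filter, 2 with the replicate block over all libraries, 0 with limma, and 0 to 7 when 1 mouse was left out (0 without T1D mouse 1, 7 without T1D mouse 2). Among all genes, the shares for T1D against NGT were 3.75% without the filter, 3.14% with limma, 14.0% with the block in the NGT and T1D libraries, 2.99% without T1D mouse 1 and 7.31% without NGT mouse 1. For Lira against T1D they were 4.44% in DESeq2, 2.97% without the filter, 3.63% with the block over all libraries, 2.04% with limma, 2.36% without T1D mouse 1 and 4.04% without T1D mouse 2. With the replicate block over all libraries, T1D against NGT gave 5 members (against 5.39% of all genes), losing Cxcl9 and Cxcl16 and gaining Ccl21c. By adjusted p the block changed no call.

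Of 403 log2 fold changes recomputed under the other alternatives, 394 kept their direction. The 9 that turned, all with small estimates, were for T1D against NGT Ccl27a (0.03 with library size, 0.06 with limma), Cxcr2 (0.13 with limma, 0.04 with the 6-library block) and Cxcr5 (0.62 with the block over all libraries, 0.43 with limma, 0.47 with the 6-library block), and for Lira against T1D Ccr1 (-0.45 with the block, -0.51 with limma). The cause was not tested.

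Leaving out 1 mouse kept the direction in 333 of 372 cases, and 18 of the 39 turns came without T1D mouse 1. The ranges of log2 fold changes that turned were, for T1D against NGT, -0.73 to 0.04 for Ccl24, -0.14 to 0.49 for Ccl25, -0.15 to 0.01 for Ccl27a, -0.60 to 5.74 for Ccl5, -0.32 to 0.70 for Cx3cl1, -0.14 to 5.74 for Cxcl9, -0.20 to 1.25 for Ackr4, -0.43 to 1.90 for Ccr2, -0.07 to 1.68 for Ccr7, -0.94 to 0.04 for Ccr9, -0.12 to 2.34 for Cx3cr1, -0.36 to 0.63 for Cxcr2, -0.30 to 1.34 for Cxcr4, -0.70 to 2.37 for Cxcr5 and -0.21 to 1.04 for Xcr1. For Lira against T1D they were -0.18 to 0.02 for Ccl27a, -0.53 to 0.65 for Ccl28, -4.21 to 1.63 for Ccl5, -1.04 to 0.60 for Ccl6, -1.90 to 0.04 for Ccl9, -0.89 to 0.13 for Cx3cl1, -0.92 to 0.06 for Ackr4, -1.09 to 0.68 for Ccr1, -1.66 to 0.79 for Ccr2, -0.70 to 1.69 for Ccr7, -0.45 to 1.54 for Ccr9, -1.77 to 0.62 for Cx3cr1, -0.34 to 1.07 for Cxcr2, -1.05 to 1.20 for Cxcr4 and -1.21 to 0.05 for Xcr1.

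The number of ligand sums at an exact p of 0.1 was 1 to 4 for T1D against NGT and 1 to 3 for Lira against T1D when 1 mouse was left out, and that of receptors 0 to 1 and 0 to 2. Members under the count minimum were tested only in the fit without the filter.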
